A study of Mus musculus with 4 samples.

Results

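The proteasome genes of the mouse were taken as all genes whose symbol begins with Psm, a letter from a to g and a digit, with pseudogenes left out. The rule found 50 genes among the 50600 of the count tables, of which 48 had a count in at least 1 library and 2, Psma8 and Psme2b, had 0 counts in all libraries. One of the 50, Psmc3ip, is no proteasome subunit: it is named for binding the subunit Psmc3 and is known as a partner of the meiotic recombinases. The 4 pseudogenes left out had 0 counts in each library.

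The proteasome is the large protease that degrades proteins marked with ubiquitin. Its core particle, the 20S, stacks rings of alpha subunits, which gate the entrance, around rings of beta subunits, of which Psmb5, Psmb6 and Psmb7 carry the active sites. The regulatory particle, the 19S, holds ATPases that unfold substrates and non-ATPase subunits that bind and remove ubiquitin. Interferon induces Psmb8, Psmb9 and Psmb10, which replace the constitutive catalytic subunits in new particles, the immunoproteasome, and lymphocytes are known to carry it without added interferon. It is known for cutting peptides that MHC class I presents.

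The data were RNA-seq of T-helper 2 cells, the CD4 T cells known for making interleukin-4. They were primary cells of C57BL/6NJ mice, in 1 group of 4 libraries (replicates 1 to 4), and no further cell type, treatment or control was included. All libraries had the same donor record, age was unknown and sex not collected, and the paths in the file headers named a time of 24 hours. Nothing in the labels said that the replicates came from separate mice, so p-values here cover the spread between these 4 libraries, and that spread may be technical.

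The libraries held 1804217, 1846441, 2711948 and 2169955 counts in replicates 1 to 4. No pair agreed within sampling noise (chi-square per degree of freedom of 2.26 at the lowest, for replicates 1 and 2). By this measure over all genes, replicate 3 lay farther from replicates 1 and 2 (72.1 and 71.5) than replicate 4 did (45.5 and 43.8). Replicates 3 and 4 were at 32.0. A count of 0 allows up to 3 counts, or 1.11 to 1.66 CPM, and this floor and all intervals below cover counting error only. Genes whose exons share at least 50 bases with exons of a gene on the other strand made up 14.9% of all genes and held 90.4% ± 1.96 of the counts (SD, n = 4). A value here is therefore that of the counted strand of a gene, which may not be the strand of its transcripts. For the proteasome genes, replicate 4 stood apart from the others, as described at the end. Results that rest on it are given with and without it. T cell markers were present, with 10 of 10 above 1 TPM, against 37.6% of all genes with a count. Their summed counts were 86 in replicate 4 and 378, 551 and 413 in replicates 1 to 3. Of the Th2 markers, Gata3, Il4 and Il4ra were above 1 TPM, while Il5 and Il13 had 1 count each over all libraries. Of the markers of other cells, Cd8a, Cd79b, Ms4a1, Adgre1, Lyz2, Itgax, Foxn1, Ddx4 and the 3 NK markers, had 0 counts. The B cell gene Cd79a and the macrophage gene Cd68 were also above 1 TPM, at 5.92 ± 1.52 and 6.29 ± 3.19 TPM, and Cd8b1 had 3 or 4 counts per library. Flt3 and Xcr1 had 0 to 9, and Csf1r, which shares 871 exon bases with the other strand, had 983 to 1026.

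The proteasome genes together held 2071, 2417, 2538 and 1566 counts in replicates 1 to 4, or 0.103% ± 0.0255 of all counts (SD, n = 4). Psmc3ip alone held 648, 690, 651 and 656 of these. Without it the others held 1423, 1727, 1887 and 910 counts, so replicate 4 was the lowest library. A count was seen for 46, 47, 48 and 39 of the 50 genes.

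Levels are given in TPM, the count per exon base rescaled so that all libraries have 1 total, and were tested against 1 TPM. A gene with 3103 exon bases, the median, had 3.82 to 5.15 counts at 1 TPM. Of the 48 proteasome genes with a count, 40 were above 1 TPM and 2 were below it at an adjusted p under 0.05 (edgeR quasi-likelihood fit, two-sided, Benjamini-Hochberg over 17203 genes). Among all genes with a count, 37.6% were above 1 TPM and 21.7% below. With the DESeq2 Wald test, 29 of the 48 were above 1 TPM, against 5351 of 17203 genes. With limma it was 27 or 28, against 5523 or 5485, at a pseudocount of 0.1 or 1. The size of the adjusted p also depended on the fit. For Psma4 it was 5.8e-132 in the edgeR fit, 1.7e-08 with edgeR's default filter and 3.3e-05 with limma (pseudocount 0.1). The median of mean TPM was 4.07 in all 50 proteasome genes, Psma8 and Psme2b at 0 included, and 1.14 in all genes with a count. Among genes that share no exon base with the other strand, 29 of 36 proteasome genes were above 1 TPM, against 24.9% of all such genes. The medians were 3.83 TPM, again with Psma8 and Psme2b included, and 0.731 TPM for all such genes with a count. Among genes that share at least 50 bases, 9 of 10 proteasome genes were above 1 TPM, against 62.2% of all such genes, with medians of 7.17 TPM and 5.07 TPM. Subunits that are built into the same 19S particle spanned a wide range of levels, from 84.5 ± 25.2 TPM for Psmd7 to 1.82 ± 1.11 TPM for Psmd11 (SD, n = 4).

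**Figure D1:**
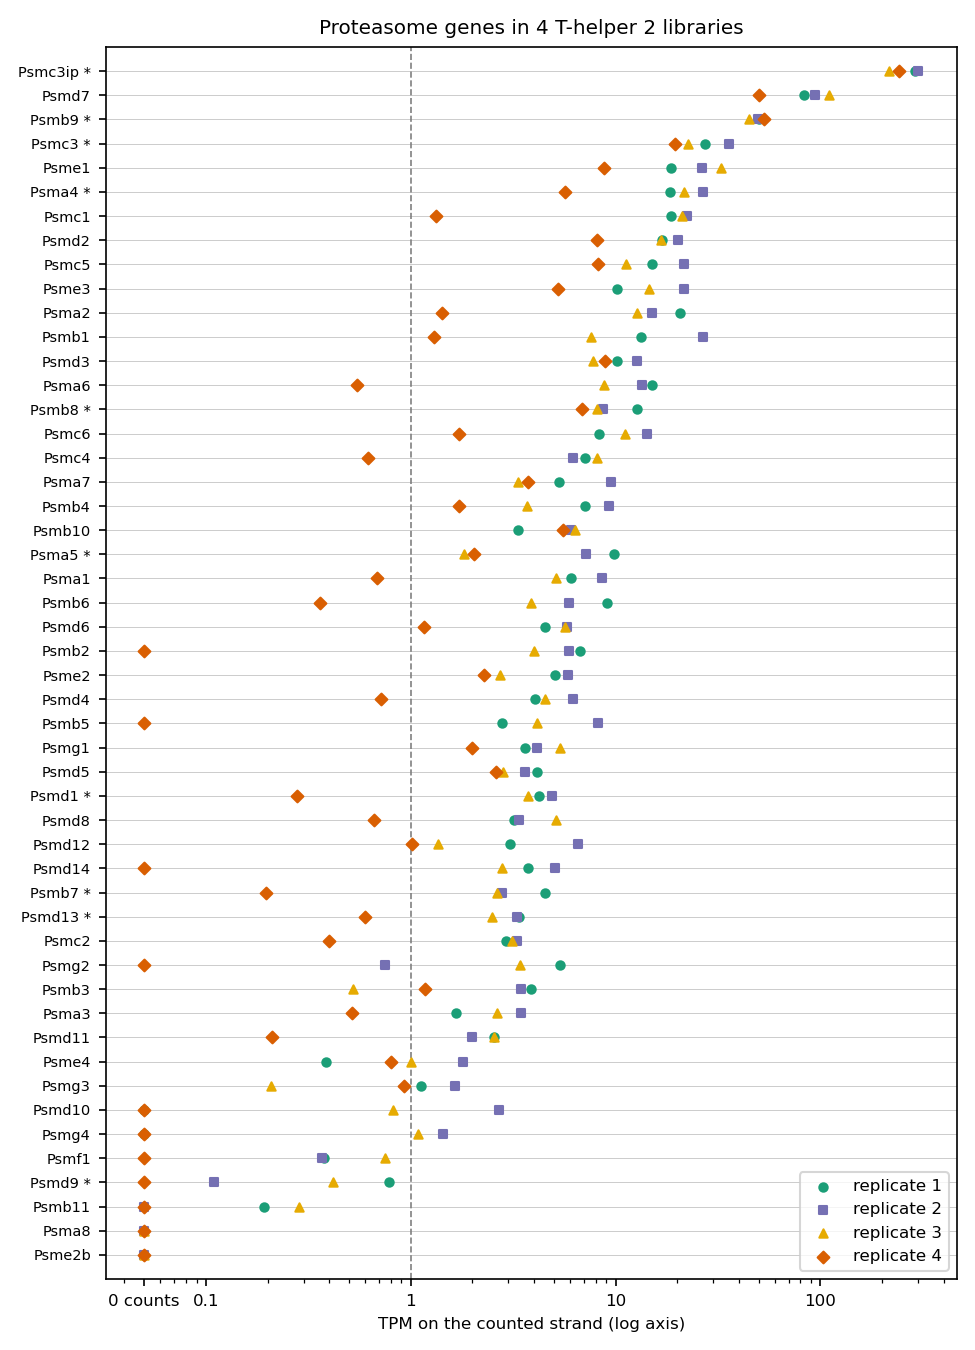
Level of each of the 50 proteasome genes in TPM on the counted strand (log axis), 1 point per library and 1 row per gene in the order of mean TPM, with an asterisk on genes that share 50 exon bases or more with an opposite gene and a dashed line at 1 TPM. Replicate 4 was the lowest library for 36 of the 48 genes with a count and the highest for 1, Psmb9, and 9 of these genes had 0 counts there.

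The alpha ring subunits, which form the gate of the 20S core, were all above 1 TPM, 7 of 7, with a median of 5.47 TPM. Psma4 was the highest, with 54, 80, 85 and 20 counts, or 18.1 ± 8.98 TPM (SD, n = 4), and shares 114 exon bases at its 5′ end with AY074887. Psma2 had 24, 18, 20 and 2 counts, and Psma6 had 23, 21, 18 and 1. In both, replicates 1 to 3 lay close together and replicate 4 lay far below their range. Psma5 had 16, 12, 4 and 4 counts, with replicates 3 and 4 alike, and Psma7 had 20, 37, 17 and 17. Psma3 was the lowest of the 7, at 2.07 ± 1.27 TPM from 8, 17, 17 and 3 counts. Its call was lost with the DESeq2 Wald test, with limma, at 2 TPM and without replicate 2 or 3. Summed over the 7 genes, the counts were 50 in replicate 4, against 167, 217 and 186 in replicates 1 to 3.

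The non-catalytic beta subunits Psmb1 to Psmb4 complete the inner rings and were above 1 TPM in 4 of 4 cases, with a median of 4.82 TPM. The call was lost for Psmb2 and Psmb3 with limma, and for Psmb3 also with the DESeq2 Wald test, at 2 TPM and without replicate 1 or 2. Psmb1 had 17, 35, 13 and 2 counts, or 12.2 ± 10.9 TPM. Psmb4 had 17, 23, 12 and 5 counts. Psmb2 had 10, 9, 8 and 0 counts, and Psmb3 had 11, 10, 2 and 4.

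The catalytic subunits were compared within each library, inducible against constitutive. The 3 inducible genes held 275, 271, 326 and 332 counts in replicates 1 to 4, against 43, 35, 33 and 2 for the 3 constitutive genes. The inducible sum was thus similar in all libraries, while the constitutive sum was near 0 in replicate 4. Most of the inducible sum was Psmb9, with 225, 228, 271 and 290 counts. As a share of the summed TPM of the 6 genes, the inducible genes made up 80.1%, 79.1%, 84.7% and 99.2%. Without Psmb9 and its counterpart Psmb6, the shares of Psmb8 and Psmb10 were 68.8%, 57.3%, 68.1% and 98.4%. The inducible genes were above 1 TPM in 3 of 3 cases with each tool and each replicate left out. The constitutive genes were above it in 3 of 3 cases with edgeR, 1 of 3 with the DESeq2 Wald test and 0 or 1 of 3 with limma, where the pseudocount was 0.1 or 1. Leaving out replicate 1, 2 or 3 left 2, 2 or 1 of them above 1 TPM in edgeR's test. Psmb5, Psmb6 and Psmb7 have pseudogene copies, and how reads were divided between near-identical copies is not given in the sources used here, so their counts are uncertain to that extent.

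Psmb8 encodes the inducible chymotrypsin-like subunit, beta5i (chr17:34197721-34201454, plus strand), and Psmb5 its constitutive counterpart, beta5 (chr14:54614120-54617995, minus strand; coordinates on mm10). Psmb8 had 43, 30, 37 and 28 counts, or 9.12 ± 2.54 TPM, against 3, 9, 6 and 0 counts, or 3.78 ± 3.41 TPM, for Psmb5 (SD, n = 4). The 2 genes were nearly equal in replicate 2 and farthest apart in replicate 4, where Psmb5 had no count. The difference Psmb8 minus Psmb5 in log2(TPM + 0.1) was 2.15, 0.08, 0.96 and 6.13, with a mean of 2.33 ± 2.67, above 0 in 4 of 4 libraries. Without replicate 4 the mean was 1.06 ± 1.04 (SD, n = 3). Divided by exon length, the summed counts of Psmb8 were 2.44 times those of Psmb5 (exact conditional 95% interval, as for the ratios below, 1.49 to 4.24), and 1.95 without replicate 4 (1.18 to 3.40).

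Psmb9 encodes beta1i (chr17:34181988-34187764, minus strand), and Psmb6 its constitutive counterpart beta1, the caspase-like subunit (chr11:70525367-70527858, plus strand). Psmb9 had 225, 228, 271 and 290 counts, or 49.3 ± 3.56 TPM, against 21, 14, 12 and 1 counts, or 4.81 ± 3.67 TPM, for Psmb6. Every value of Psmb9 was above every value of Psmb6, and Psmb9 varied little between libraries. The log2 difference was 2.44, 3.04, 3.50 and 6.86, with a mean of 3.96 ± 1.98, and 2.99 ± 0.53 without replicate 4. Psmb9 had 10.8 times the counts of Psmb6 per exon base (8.09 to 14.8), and 7.88 without replicate 4 (5.86 to 10.8). This was the widest gap of the 3 catalytic pairs, with or without replicate 4. Psmb9 shares 212 exon bases with the other strand, Psmb8 186 and Psmb7 405, while Psmb5, Psmb6 and Psmb10 share none. Of all genes with a count, those with at least 50 shared bases had a median of 5.07 TPM and those with none 0.731 TPM. The part of the shared bases in the pair differences was not tested.

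Psmb10 encodes beta2i (chr8:105935735-105938444, minus strand), and Psmb7 its counterpart beta2, the trypsin-like subunit (chr2:38588036-38644087, minus strand). Psmb10 had 7, 13, 18 and 14 counts, or 5.32 ± 1.37 TPM, against 19, 12, 15 and 1 counts, or 2.53 ± 1.77 TPM, for Psmb7. In counts Psmb10 was the lower gene in replicate 1, and in TPM it was also lower there and higher in the other 3 libraries. The log2 difference was -0.42, 1.09, 1.24 and 4.24, with a mean of 1.54 ± 1.96, and 0.63 ± 0.92 without replicate 4. Per exon base, the ratio of Psmb10 to Psmb7 was 2.22 (1.47 to 3.37), and 1.66 without replicate 4 (1.05 to 2.60).

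The exact permutation test that flips the signs, two-sided, cannot go below p = 0.125 with 4 libraries, so no difference could pass a threshold of 0.05 in it. That value was reached for Psmb8 minus Psmb5 and for Psmb9 minus Psmb6, and the exact permutation p was 0.25 for Psmb10 minus Psmb7. Adjusted over the 5 pairs compared, activators included, the permutation p was 0.156 for 4 pairs and 0.25 for Psmb10 minus Psmb7. Exon length also entered the comparison: on CPM, which has no division by length, the mean difference Psmb10 minus Psmb7 was 0.63 and Psmb8 minus Psmb5 was 3.77. Psme1 minus Psme3, described below, was 0.36 on CPM.

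**Figure D2:**
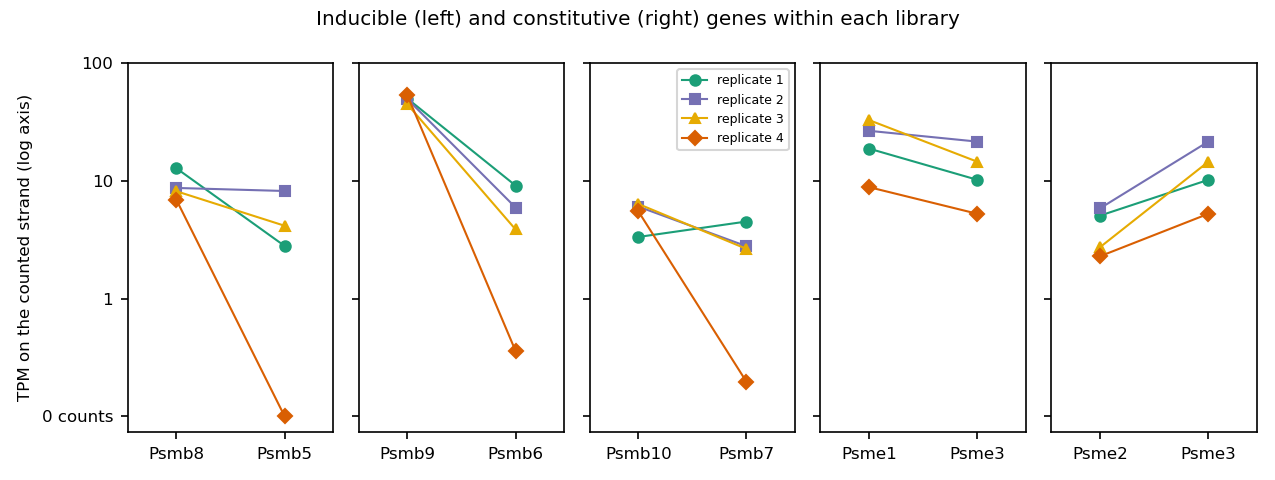
TPM on the counted strand (log axis) of each inducible gene, at the left of each panel, and its constitutive counterpart, at the right, with a line joining the values of 1 library. Psmb9 stayed between 44.6 and 53.3 TPM in all libraries, and the steepest lines of the catalytic pairs belong to replicate 4, where Psmb5, Psmb6 and Psmb7 had 0, 1 and 1 counts.

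The sequences before the start sites of Psmb5 and Psmb6 are shown because they hold a match to the core of the antioxidant response element, the site bound by Nfe2l1 and Nfe2l2, factors known to drive proteasome genes. They cover the 250 bases before each RefSeq start on GRCm38.p6, 5′ to 3′ on the strand of the gene, with the match to TGACNNNGC in capitals. The Psmb5 window is chr14:54617996-54618245 on the minus strand, and the Psmb6 window is chr11:70525107-70525356 on the plus strand.
Psmb5: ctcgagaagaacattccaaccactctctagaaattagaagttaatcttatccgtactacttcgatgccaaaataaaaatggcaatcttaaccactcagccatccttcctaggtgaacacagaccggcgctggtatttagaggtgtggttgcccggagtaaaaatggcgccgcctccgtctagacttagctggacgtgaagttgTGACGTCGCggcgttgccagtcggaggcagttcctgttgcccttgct
Psmb6: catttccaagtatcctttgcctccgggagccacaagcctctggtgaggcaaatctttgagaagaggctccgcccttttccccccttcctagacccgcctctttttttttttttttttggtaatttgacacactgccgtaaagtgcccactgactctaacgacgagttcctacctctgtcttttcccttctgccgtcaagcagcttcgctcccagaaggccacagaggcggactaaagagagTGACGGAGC
The match began 47 bases before the start in Psmb5 and 9 bases before it in Psmb6. RefSeq promoters of 300 bases, 250 before and 50 after the start, were found for 42 of the 50 proteasome genes. Searched on both strands, TGACNNNGC was in 6 of the 42 (14.3%), namely Psmb5, Psmb6, Psmc6, Psmd9, Psmd12 and Psme4, against 14.0% of the promoters of 27025 genes. The core of the interferon-stimulated response element, GAAANNGAA, was in 7 of the 42 (16.7%), namely Psmb3, Psmb4, Psmc2, Psmd4, Psmd9, Psme1 and Psmg4, against 9.76% of all promoters. Neither motif was in the windows of Psmb8, Psmb9 and Psmb10. A match is a description of letters, not of a bound site.

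The 19S ATPases Psmc1 to Psmc6, the ring that unfolds substrates, had the highest median of the subunit classes, 11.4 TPM, and 6 of 6 were above 1 TPM. Psmc3 was the highest of them, with 88, 118, 98 and 76 counts, or 26.4 ± 7.10 TPM. Psmc1 had 35, 43, 53 and 3 counts, or 15.9 ± 9.83 TPM, and Psmc5 had 26, 38, 26 and 17, or 14.0 ± 5.79 TPM. Replicate 4 was the lowest library for each of these 3 genes in TPM. Psmc6 had 16, 28, 29 and 4 counts, Psmc4 had 19, 17, 29 and 2, and Psmc2 had 18, 21, 26 and 3. Psmc2 was the lowest at 2.43 ± 1.36 TPM, and its call was lost with the DESeq2 Wald test, with limma, at 2 TPM and without replicate 3.

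Psmc3ip had 262 ± 39.9 TPM from 648, 690, 651 and 656 counts, the highest level of the 50 genes in each library. It shares 385 exon bases at its 3′ end with Mlx, a transcription factor gene, which had 97, 105, 91 and 78 counts.

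The non-ATPase subunits of the 19S, which form its scaffold, ubiquitin receptors and deubiquitinase, were above 1 TPM in 11 of 11 cases, with a median of 3.29 TPM. The DESeq2 Wald test and limma called 5 of the 11, losing Psmd1, Psmd8, Psmd11, Psmd12, Psmd13 and Psmd14, and edgeR called 7 without replicate 2. Psmd7, a lid subunit that pairs with the deubiquitinase Psmd14, had 233, 269, 412 and 169 counts, or 84.5 ± 25.2 TPM (chr8:107580381-107588464, minus strand). It was the highest true subunit in every library but replicate 4, where Psmb9 was higher in TPM. It shares no exon base with the other strand, and the nearest gene on that strand, Wwp2, lies 21786 bases away and had 10, 6, 0 and 1 counts. Psmd14 itself had 13, 18, 13 and 0 counts, or 2.90 ± 2.14 TPM. Psmd2, a scaffold subunit at the base, had 84, 103, 112 and 49 counts, or 15.5 ± 5.15 TPM. Its base partner Psmd1 had 38, 45, 45 and 3 counts, or 3.29 ± 2.07 TPM. Psmd3, a lid subunit, had 62, 80, 64 and 66 counts, or 9.90 ± 2.14 TPM. The ubiquitin receptor Psmd4 had 14, 22, 21 and 3 counts, or 3.87 ± 2.30 TPM. The other members, Psmd6, Psmd8, Psmd11, Psmd12 and Psmd13, had means of 1.82 to 4.30 TPM.

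The activators cap the 20S core in place of the 19S. Psme1 and Psme2 encode the alpha and beta subunits of PA28, which interferon induces, and Psme3 encodes the nuclear PA28 gamma. Psme1 had 51, 74, 120 and 29 counts, or 21.7 ± 10.3 TPM (chr14:55578123-55581529), Psme2 had 11, 13, 8 and 6, or 3.98 ± 1.74 TPM (chr14:55587441-55591113), and Psme3 had 37, 80, 71 and 23, or 12.9 ± 6.90 TPM. In TPM, Psme1 was above Psme3 in each library and Psme2 was below it in each, while in counts Psme1 was below Psme3 in replicate 2. The log2 difference Psme1 minus Psme3 was 0.87, 0.30, 1.17 and 0.74, with a mean of 0.77 ± 0.36. For Psme2 minus Psme3 it was -0.99, -1.86, -2.37 and -1.16, with a mean of -1.60 ± 0.64. Both reached the smallest exact permutation p, 0.125. Per exon base, the ratio was 1.73 (1.44 to 2.08) for Psme1 over Psme3 and 0.301 (0.207 to 0.427) for Psme2 over Psme3. Unlike the catalytic pairs, these differences hardly moved without replicate 4, at 0.78 ± 0.44 and -1.74 ± 0.69. The inducible activator genes thus did not lie on 1 side of the constitutive one.

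Psme4, which encodes the large activator PA200, had 4, 19, 14 and 10 counts, or 0.998 ± 0.592 TPM, and was called neither above nor below 1 TPM (adjusted p = 0.99, edgeR). Psmf1, the inhibitor PI31, had 3, 3, 8 and 0 counts, or 0.374 ± 0.306 TPM, with an adjusted p of 0.060 in edgeR's quasi-likelihood test. Psme2b, a close copy of Psme2, had 0 counts in each library. Over the 4 libraries summed, with Psme2b put at 3 counts, Psme2 was 6.01-fold higher per exon base, and the lower limit of the exact conditional 95% interval of the counts themselves was 4.65. Reads of such copies can be assigned to either.

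Of the 7 assembly chaperones, 2 were above 1 TPM and 1 was below it, against 37.6% and 21.7% of all genes with a count. Psmg1 to Psmg4, which help to build the 20S alpha ring, had a median of 1.68 TPM, and 1 of 4, Psmg1, was above 1 TPM. Psmg1 had 6, 7, 12 and 4 counts, or a mean of 3.78 TPM. Its partner Psmg2 had 7, 1, 6 and 0 counts, or 2.38 ± 2.47 TPM, Psmg3 had 4, 6, 1 and 4, and Psmg4 had 0, 1, 1 and 0. At such counts none of the last 3 could be told from 1 TPM, with adjusted p-values of 0.087, 0.93 and 0.67 in edgeR's test. The chaperones of the 19S base, Psmd5, Psmd9 and Psmd10, had a median of 0.880 TPM. Psmd5 was above 1 TPM at 3.30 ± 0.715 TPM, from 37, 33, 34 and 28 counts that were alike in all libraries. Psmd9 was below 1 TPM at 0.327 ± 0.352 TPM, from 7, 1, 5 and 0 counts. Psmd10, also called gankyrin, had 0, 5, 2 and 0 counts and an adjusted p of 0.83 in edgeR's test.

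The members known from other tissues were at or near 0. Psma8, the alpha subunit of the testis, had 0 counts, and Psma7, its counterpart in other cells, was 16.7-fold higher per exon base when 3 counts in all were assumed for Psma8. The lower limit of the exact conditional 95% interval of the counts themselves was 13.3. Psmb11, the beta5t subunit of the cortical thymic epithelium, had 1, 0, 2 and 0 counts, or 0.119 ± 0.142 TPM, and was the other gene below 1 TPM. Per exon base, the ratio was 71.4 (23.9 to 350) for Psmb8 over Psmb11 and 29.3 (8.54 to 155) for Psmb5 over Psmb11. Foxn1, the factor of thymic epithelium, and Ddx4, a germ cell gene, also had 0 counts.

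Of the 50 proteasome genes, 10 (20%) share 50 exon bases or more with a gene of the opposite strand, against 20.2% of the 21764 protein-coding genes. Another 2 share fewer bases and 38 share none. For 3 of the 10, the gene on the other strand held far more counts than the proteasome gene. Psmb8 had 43, 30, 37 and 28 counts and Gm20496, an antisense RNA gene, had 5336, 5394, 5797 and 5381, or 159 times the summed counts of Psmb8. The pair shares 186 bases at the 3′ ends, 28.1% of the exon length of Gm20496, which also shares 165 bases with Tap2. Psmb7 had 19, 12, 15 and 1 counts and the kinase gene Nek6 had 5005, 4990, 5014 and 4251, or 410 times the sum of Psmb7. Their 405 shared bases at the 3′ ends are only 3.78% of the exon length of Nek6. Psma4 had 54, 80, 85 and 20 counts and AY074887 had 1049, 888, 1044 and 1006.

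For 5 of the 10, the proteasome gene held more counts than its opposite gene. Psmb9 had 225, 228, 271 and 290 counts and Tap1, a subunit of the peptide transporter of antigen presentation, had 34, 40, 62 and 39. These neighbours share 212 bases at their 5′ ends. Both had their fewest counts in replicate 1, the library with the lowest total, while in TPM Psmb9 was lowest in replicate 3, at 44.6. Psmc3 had 88, 118, 98 and 76 counts, and Slc39a13, a zinc transporter gene that shares 215 bases at the 3′ end, had 24, 34, 30 and 36. Psmc3ip held 7.13 times the summed counts of Mlx. Psmd1 had 38, 45, 45 and 3 counts, and the serotonin receptor gene Htr2b, which lies inside it and shares 252 bases, had 10, 6, 12 and 8. Psma5 had 36 counts in all and 1700010K24Rik, which shares 60 bases, had 2. In the other 2 pairs both genes were low. Psmd9 had 7, 1, 5 and 0 counts and Gm26745, with 98.7% of its exon length shared, had 13, 2, 4 and 3. Psmd13, a lid subunit gene, had 14, 14, 14 and 3 counts and the deacetylase gene Sirt3, with 342 shared bases, had 16, 15, 21 and 33.

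The pairs with under 50 shared bases included a wide gap as well. Psme1 shares 14 bases with Emc9, which had 565, 563, 739 and 394 counts, against 274 for Psme1 in all. Psmd3 shares 17 bases with Gm12356, which had 658, 773, 747 and 1020. Psmb5, Psmb6 and Psmb10 share no exon base, although Psmb10 lies within the span of Gm16156 on the other strand, which had 357, 348, 380 and 406 counts.

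**Figure D3:**
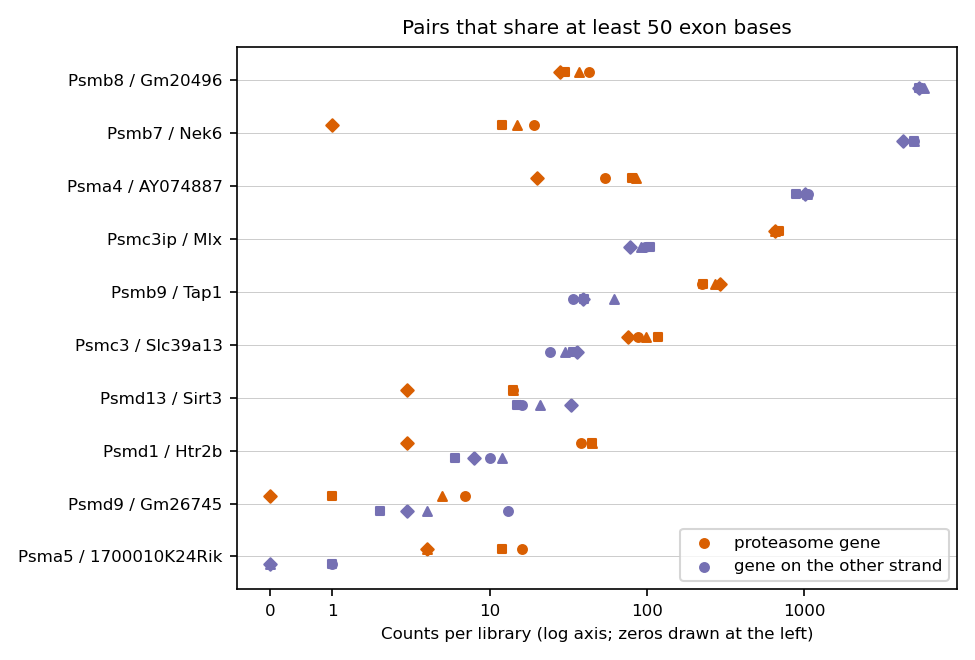
Counts per library (log axis, zeros at the left) of the proteasome gene, drawn above, and the gene on the other strand, drawn below, for the 10 pairs that share at least 50 exon bases, with circles, squares, triangles and diamonds for replicates 1 to 4. The 3 pairs at the top have the opposite gene far to the right, with 888 to 5797 counts per library.

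**Figure D4:**
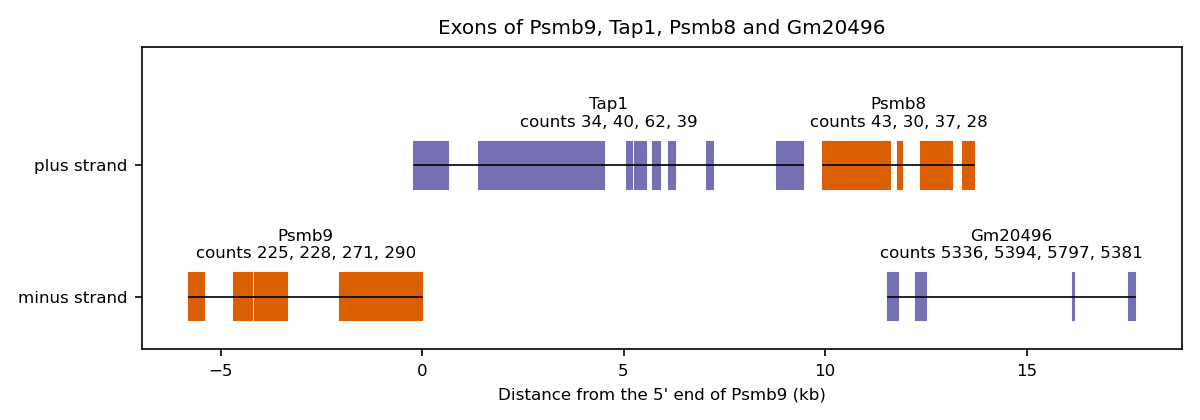
Merged exons of Psmb9, Tap1, Psmb8 and Gm20496 on their strands, with the proteasome genes in orange, in kilobases from the 5′ end of Psmb9 and with the counts of replicates 1 to 4 above each gene. Psmb9 and Tap1 overlap at their 5′ ends, and Gm20496 overlaps the 3′ exons of Psmb8.

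Replicates were set against each other as log2 CPM of 1 library minus the mean of the other 3, over genes that had 10 counts or more in each of those 3. In replicate 4, 22 of the 31 proteasome genes that passed were lower by more than 1, with a median of -2.11. The same held for 28% of all genes that passed, with a median of -0.20. For the other libraries, 1 of 15 proteasome genes was lower by more than 1 in replicate 1, 0 of 13 in replicate 2 and 0 of 13 in replicate 3, against 1.21%, 0.917% and 5.48% of all genes. These shares describe 1 library against the rest and have no test. The filter kept different genes for each replicate, since genes low in replicate 4 could pass for replicate 4 alone. Over the same genes for each replicate, those with a mean of 10 counts or more over all libraries, 1, 0, 1 and 24 of 35 proteasome genes were lower in replicates 1 to 4. Of all genes kept by that filter, 1.28%, 0.937%, 5.15% and 27.5% were lower.

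Lower counts in replicate 4 were seen across most subunit classes, although its total was above those of replicates 1 and 2. The constitutive catalytic genes together had 2 counts in replicate 4, against 43, 35 and 33 in replicates 1 to 3. The non-catalytic beta genes had 11, against 55, 77 and 35. The 19S ATPases had 105, against 202, 265 and 261, and the non-ATPases had 306, against 513, 619 and 762. The activators had 68, against 103, 186 and 213. In contrast, the inducible catalytic genes had 332, against 275, 271 and 326, and Psmc3ip had 656, against 648, 690 and 651. Psmb9 held most of the inducible counts, with 290 against 225, 228 and 271. Psmb8 had its fewest counts in replicate 4, with 28 against 43, 30 and 37, and Psmb10 had 14 against 7, 13 and 18. Psmd14, the deubiquitinase of the lid, had the lowest difference, with 0 counts in replicate 4 against 13, 18 and 13.

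Sharing exon bases with the other strand went along with these differences. Among genes that share no base, 17 of 21 proteasome genes were lower by more than 1 in replicate 4, with a median of -2.51, against 55.9% of 2115 such genes, with a median of -1.24. Among genes that share at least 50 bases, 4 of 8 proteasome genes were lower, against 9.52% of 3150 such genes. These shares rest on the filter of 10 counts in each of replicates 1 to 3. That filter asked nothing of replicate 4 and so favoured genes that are low there. Of the opposite genes with the most counts, Gm20496 had 5381 in replicate 4 and 5336 to 5797 in the others, AY074887 had 1006 and 888 to 1049, and Nek6 had 4251 and 4990 to 5014. Proteasome genes that were not lower by more than 1 were Psmb8, Psmb9, Psmc3, Psmc3ip and Psmd3, which share exon bases, and Psma7, Psmc5, Psmd5 and Psmd7, which share none. Psmb10, which shares no base and did not pass the filter, had 14 counts in replicate 4 against 7, 13 and 18. The summed T cell markers were also lowest in replicate 4, at 22.8 TPM, and reached 135 TPM at the highest. Neither the part of the shared bases nor that of the cells in replicate 4 was tested, and in bulk samples fewer cells of a type and less RNA per cell cannot be told apart.

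**Figure D5:**
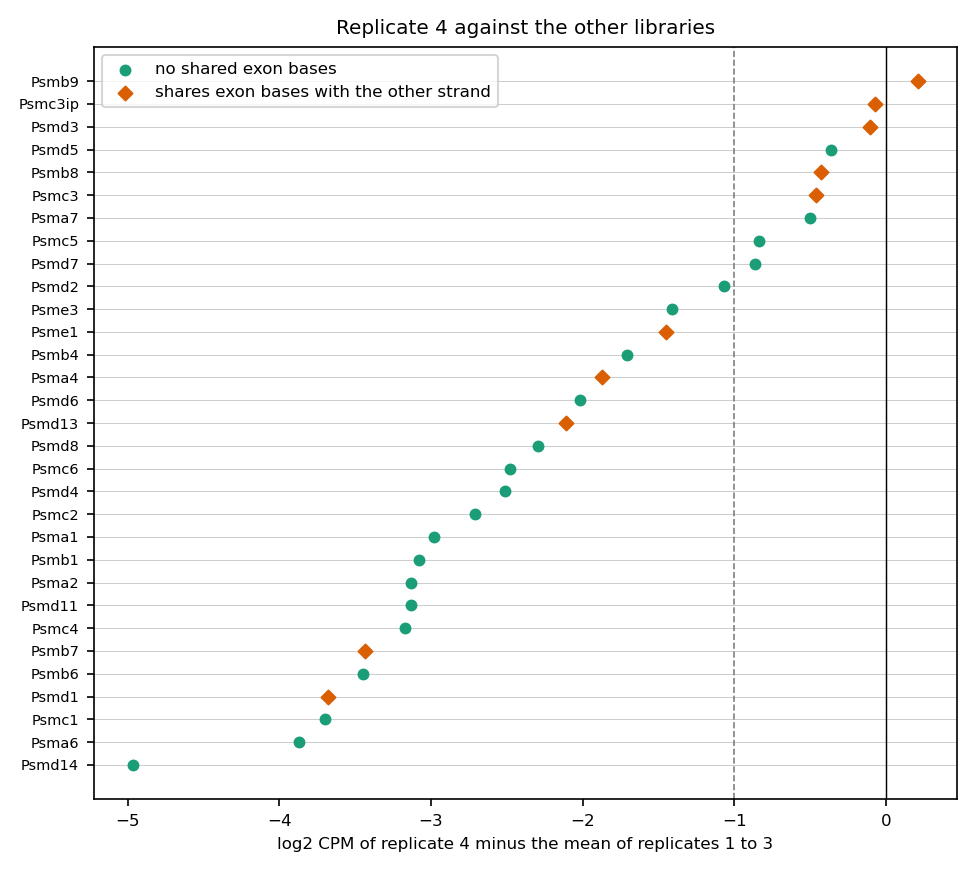
Difference of log2 CPM in replicate 4 minus the mean of replicates 1 to 3, for the 31 proteasome genes that had 10 counts or more in each of replicates 1 to 3, with diamonds for genes that share any exon base with the other strand and circles for those that share none. The dashed line marks -1, 22 genes lie to the left of it, and Psmb9 lies farthest right, above 0.

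Other genes of the pathway were described from lists of partners, ubiquitin genes, shuttles, regulators and antigen presentation. Among all genes with a count, 37.6% were above 1 TPM and 21.7% below, which are the shares to set beside each list. Of the proteasome partners, 3 of 10 found were above 1 TPM and 2 were below, near those shares. Above it were Uchl5, a deubiquitinase of the 19S, at 5.88 ± 3.19 TPM, Txnl1, a thioredoxin-like 19S partner, at 3.93 ± 2.51 TPM, and the small 19S subunit Sem1 at 2.25 ± 1.53 TPM. Pomp, the maturation factor of the 20S, had 15, 16, 20 and 0 counts, or 1.77 ± 1.18 TPM, and was not called. Of the ubiquitin genes and E1 enzymes, 5 of 6 were above 1 TPM, among them Rps27a at 17.2 ± 12.0 TPM, Ubb at 13.7 ± 7.48 TPM and the main E1 gene Uba1 at 5.75 ± 3.56 TPM. Of the shuttles and the segregase, 5 of 9 were above it. Ubqln1, a shuttle for ubiquitinated proteins, had 4.63 ± 1.72 TPM, the segregase Vcp had 3.48 ± 1.98 TPM, and Rad23b, another shuttle, had 3.03 ± 1.41 TPM.

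Of the 6 regulators, 2 were below 1 TPM and 4 were not called, while 21.7% of all genes with a count were below. Nlrc5, a factor of MHC class I genes, was among those below, at 0.303 ± 0.201 TPM. Nfe2l1, known to restore proteasome genes when the proteasome is blocked, had 1.24 ± 0.683 TPM, Nfe2l2 had 0.957 ± 0.648 TPM, and Irf1 had 0.929 ± 0.391 TPM. Of the genes of MHC class I presentation, 9 of 10 were above 1 TPM, against 37.6% of all genes with a count. The chaperone Calr had 265, 247, 263 and 73 counts, or 53.7 ± 25.8 TPM. The light chain B2m had 44, 57, 53 and 5 counts, or 33.8 ± 20.9 TPM, the heavy chain H2-K1 had 16.5 ± 5.57 TPM, and Pdia3 had 14.9 ± 9.42 TPM. As with most proteasome genes, the summed counts of this list were lowest in replicate 4, at 276, against 713, 752 and 787 in replicates 1 to 3.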

How the data were processed

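The deposited tables hold raw counts per gene. Per the file headers, fragments were counted over exons with featureCounts 1.4.6-p4, strand setting 1, on GENCODE M13, and the labels give mm10 as the assembly. Exon lengths came from the same tables. From the counts, CPM and TPM were computed here. Symbols matched 50376 of 50600 IDs. Levels were tested against 1 TPM with an intercept-only quasi-likelihood fit of edgeR 4.0.16 on the counts, with the counts that 1 TPM is worth as offset, for genes with a count. Tested on simulated data of 16166 genes, this level test called 95.5% of 200 genes at 4 TPM above 1 TPM and 77.8% of the genes at 0.25 TPM with a count below it. The simulation gave a gene the same level in all 4 libraries, with 1 dispersion (0.0809) for all genes, so no library stood apart as replicate 4 did. No genes were set to 1 TPM, so the rate of false calls was not measured. Pair differences used log2(TPM + 0.1). Fits ran in R 4.3.3, with limma 3.58.1 and DESeq2 1.42.0 as alternatives, and all else in Python 3.11.15 with scipy 1.17.1. Depth was 1804217 to 2711948 counts per library.

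The gene set, the lists, the rule for named genes and the tests were chosen with earlier results of these data known. That rule took the catalytic and inducible subunits, the tissue-restricted genes, the activators, the inhibitor, the 20S chaperones, genes with at least 50 shared exon bases, the 5 highest and 5 lowest genes in TPM, and up to 4 of the highest genes of each list. Other genes named were chosen after their values were seen, and some genes of these lists are not reported here. Alternatives were other scalings, filters, tools, levels and pseudocounts and each replicate left out. GENCODE M21 exons, leaving out Psmc3ip, genes with no shared exon bases, and 1 filter for the comparison of replicates were added after seeing the data.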

Additional observations from a re-analysis of the deposited data

Results flagged for a closer look

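Of 63 sets of 4 values examined for a library far from the other 3, 3 were picked out, and chance picks about 1 in 20. Psmc2, a 19S ATPase, had 0.401 TPM in replicate 4, against 2.90, 3.31 and 3.11 TPM in replicates 1 to 3. Nek6, opposite Psmb7, had 4251 counts in replicate 4, against 5005, 4990 and 5014 in the other libraries. Gm20496, opposite Psmb8, had 5797 counts in replicate 3, against 5336, 5394 and 5381 in the others. The cause was not tested for any of them.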

How the results depend on the processing

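No paired analysis was possible because there was 1 group and thus no groups to pair. Differences between genes were taken within each library. The count of 40 genes above 1 TPM stayed within 27 to 42 under other scalings, tools, levels and a mean count of at least 10. Where it was 27 (limma, pseudocount 0.1), 5523 of all 17203 genes were above, and where it was 42 (level of 0.5 TPM), 8147 were. Under that mean count filter, 33 of 35 proteasome genes were above, against 5335 of all 6081 genes kept. The default filter of edgeR left 13 proteasome genes, of which 13 were above, against 4132 of all 4190 genes kept. Most genes kept by either filter were thus above 1 TPM. Leaving out each replicate gave 33 to 41 genes above and 0 to 2 below. Of all 16396 to 16573 genes tested in these fits, 5809 to 6910 were above and 1252 to 2931 below. The count of 2 below became 0 with the DESeq2 Wald test, the mean count filter, edgeR's default filter and a level of 0.5 TPM. Of all genes, these settings called 0 of 17203, 13 of 6081, 3 of 4190 and 1499 of 17203 below. The filters left Psmd9 and Psmb11 untested. The count below became 1 with limma at a pseudocount of 0.1, with totals without CT010467.1 and with genes that share no exon base, and 4 at 2 TPM. Of all genes, these settings called 4571 of 17203, 3295 of 17202, 2867 of 11233 and 6860 of 17203 below, in that order. With a mean count of at least 10 over the other libraries, 2 genes were lower by more than 1 in replicate 3 in place of 0, and 1 with that mean over all libraries. Directions near the level turned for Psmd10 (0.78 at 0.5 TPM, -1.72 to 0.21 with each replicate left out), Psmd11 (-0.14 at 2 TPM), Psme4 (1.00 at 0.5 TPM, 0.11 without CT010467.1, -0.43 to 0.26 with each replicate left out), Psmg3 (0.93 at 0.5 TPM, 0.012 without CT010467.1, -0.44 to 0.30 with each replicate left out) and Psmg4 (0.35 at 0.5 TPM), as log2 of the fitted level over the level tested. The causes were not tested. Leaving out each replicate, the mean log2 difference ranged over 1.06 to 3.08 for Psmb8 minus Psmb5, 2.99 to 4.47 for Psmb9 minus Psmb6, 0.63 to 2.19 for Psmb10 minus Psmb7, 0.64 to 0.93 for Psme1 minus Psme3 and -1.80 to -1.34 for Psme2 minus Psme3. With each zero put at 3 counts, Psmb8 minus Psmb5 was 1.18, and with a pseudocount of 1 or 0.01 it was 1.44 or 3.17. Depth left Psma8 and Psme2b, with 0 counts, out of the tests.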
